A study of Homo sapiens with 6 samples.

Results

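The transcripts described here carry LINC symbols, the systematic names given to long intergenic noncoding RNAs, and were measured in H1299 cells, a human lung cancer cell line, with and without depletion of Ephexin1 (gene symbol NGEF, a guanine nucleotide exchange factor of small GTPases). They were selected on their own level: all rows with a symbol made of LINC and a number whose mean over the 6 libraries was at least 0.3 FPKM (a level scaled to transcript length and sequencing depth). This rule kept 176 of 874 LINC rows in a table of 26255 rows. Of the other LINC rows, 468 were listed at 0 in all libraries and 230 were above 0 somewhere but below the threshold.

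In each row, 3 values came from cells given the control shRNA plasmid (shControl) and 3 from cells given the Ephexin1 shRNA plasmid (shEphexin1), with the same RPMI-1640 culture. The labels name pSilencer2.1-U6-neo as vector in both groups, whereas the study's methods name a hygro version and selection with hygromycin. The study describes stable knockdown cells, the names of the shEphexin1 libraries share 1 stem, and no label says that the libraries of a group were separate cultures or clones, so n = 3 and all p-values refer to the spread between these libraries. NGEF was at 13.3, 11.7 and 16.4 FPKM in the control libraries and 9.81, 8.25 and 10.5 FPKM in the depleted ones. The groups did not overlap, but the difference (log2 fold change −0.53, limma, adjusted p = 0.103) did not pass the test. The study checked its stable knockdown cells, H1299 among them, by western blot, which measures protein and not this RNA.

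Long intergenic noncoding RNAs are transcribed by RNA polymerase II, spliced and usually polyadenylated, like mRNAs, but hold no long conserved reading frame. Some act on neighbouring genes from their own site of transcription, others bind proteins or microRNAs in the nucleus or cytoplasm, and some were later found to encode small proteins. Many are transcribed in few tissues and at low levels, and several have been studied in lung cancer cells for effects on growth and invasion.

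The name did not hold for every transcript. In GENCODE release 44, placed on GRCh37, 163 of the 176 had an entry, 129 under the same symbol and 34 under a newer one, and 13 had none. Of the 163 entries, 146 were long noncoding RNAs, 5 were transcribed pseudogenes and 12 were now protein-coding genes, among them SMIM30 (LINC00998), SMIM26 (LINC00493), MTLN (LINC00116), NBDY (LINC01420) and SYNE3 (LINC00341). The transcripts lay on 23 chromosomes, 10 of them on the X chromosome. Of the 163, 10 noncoding entries overlapped a coding gene on the same strand, 27 only on the opposite strand, and 114 overlapped none. Overlap with genes not classed as coding in GENCODE was not counted. LINC00632 and LINC01444 are among the 114, although they overlap CDR1 and LINC01443. The library kit was stranded, but whether strand was used in counting is not given in the sources used here, so reads of overlapping genes may not have been told apart.

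Most of these RNAs were scarce. The median of their means was 1.41 FPKM, against 8.54 FPKM over all genes that reached the same threshold. Of the 176, 111 reached 1 FPKM, 20 reached 10 FPKM and 6 reached 30 FPKM. In each library 173 to 175 of them were above 0. Their summed level was 855, 931 and 838 FPKM in the control libraries and 896, 905 and 853 FPKM in the depleted ones, so the groups overlapped, and the 10 highest transcripts held 43.3% to 48.0% of it. In structure, which the rule had not used, their entries had a median of 4 exons and a longest transcript of 2683 bases, against 9 exons and 3617 bases over all genes of at least 0.3 FPKM. RNAs with an antisense symbol at the same threshold were alike, with medians of 1.31 FPKM and 4 exons.

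The promoters of 4 of the LINC RNAs that passed the test are shown first, because they are the sequences around the annotated starts of RNAs that the results turn on. They are the RefSeq windows on GRCh38.p14 from 250 bases before to 50 bases after the start, written 5′ to 3′ on the gene's own strand. Capitals mark matches to the motifs named below. LINC00632 (chrX:140709509-140709808, plus strand, the first listed of 3 starts), LINC00960 (chr3:75672031-75672330, plus strand, the first of 2 starts) and LINC01444 (chr18:14970419-14970718, minus strand) were lower in Ephexin1-depleted cells, and LINC01391 (chr3:138943971-138944270, minus strand) was higher.
LINC00632: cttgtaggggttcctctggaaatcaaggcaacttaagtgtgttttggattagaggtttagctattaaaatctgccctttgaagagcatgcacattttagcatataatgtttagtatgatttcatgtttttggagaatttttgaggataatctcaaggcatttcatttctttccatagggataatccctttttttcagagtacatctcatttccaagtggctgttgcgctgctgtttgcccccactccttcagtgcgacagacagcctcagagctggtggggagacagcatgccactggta
LINC00960: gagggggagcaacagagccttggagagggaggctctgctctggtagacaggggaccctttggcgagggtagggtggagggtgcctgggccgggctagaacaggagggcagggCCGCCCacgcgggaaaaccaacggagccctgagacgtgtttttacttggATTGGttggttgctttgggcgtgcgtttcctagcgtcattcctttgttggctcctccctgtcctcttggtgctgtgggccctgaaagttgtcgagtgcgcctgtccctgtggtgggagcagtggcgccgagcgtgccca
LINC01444: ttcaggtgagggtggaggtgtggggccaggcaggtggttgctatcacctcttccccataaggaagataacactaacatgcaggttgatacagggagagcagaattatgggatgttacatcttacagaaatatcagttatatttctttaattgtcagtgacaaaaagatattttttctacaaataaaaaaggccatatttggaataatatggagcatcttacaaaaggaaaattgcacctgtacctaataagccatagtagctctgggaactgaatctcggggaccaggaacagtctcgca
LINC01391: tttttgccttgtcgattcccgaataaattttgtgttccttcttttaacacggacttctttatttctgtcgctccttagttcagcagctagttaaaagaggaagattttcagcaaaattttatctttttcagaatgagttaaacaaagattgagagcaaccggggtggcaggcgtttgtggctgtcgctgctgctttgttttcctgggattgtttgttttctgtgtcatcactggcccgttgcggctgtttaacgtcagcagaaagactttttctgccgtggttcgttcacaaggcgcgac
RefSeq held a promoter window under the same symbol for 98 of the 176 transcripts. Both strands were searched for 7 short motifs, each counted on its own whether or not it overlapped another. The CCAAT box (CCAAT) was in 39.8% of the 98 windows against 35.7% of all 27305 RefSeq windows, the GC box (GGGCGG) in 46.9% against 44.6%, the TATA box (TATAAA) in 11.2% against 12%, the E-box (CACGTG) in 6.12% against 7.43%, the AP-1 site (TGANTCA) in 10.2% against 7.76%, the cyclic AMP element (TGACGTCA) in 2.04% against 1.98% and an ETS site (CCGGAAG) in 16.3% against 10.7%. Of the windows printed, LINC00960 held 15 CpG dinucleotides, a CCAAT box and a GC box, both read on the other strand. LINC01391 held 14 CpG and none of the motifs, and LINC00632 and LINC01444 held 2 CpG each and none of the motifs. The median was 10 CpG over the 98 windows and 14 over all windows.

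The main comparison asked which LINC RNAs differed between Ephexin1-depleted and control cells. Of the 176, 175 had at least 0.1 FPKM in at least 3 libraries and were tested in a limma model of log2(FPKM + 0.1) fitted to all 16020 such genes, in which fold changes of low genes are understated. With the adjusted p limited to 0.025 and a fold of 2 or more required, 4 LINC RNAs were upregulated (LINC00341, LINC01391, LINC00260 and LINC01588) and 3 were downregulated (LINC00632, LINC00960 and LINC01444). Over all genes tested, 0.893% were called higher and 0.999% lower. The 7 calls were 4% of the 175, against 1.89% of all genes tested in both directions, 1.97% of protein-coding genes of at least 0.3 FPKM and 1.59% (8 of 503) of RNAs with an antisense symbol at that level. The share depended on level, since 4.41% of all genes between 0.3 and 1 FPKM were called and 6.25% (4 of 64) of the LINC RNAs in that range. Because the threshold was a mean over both groups, 18 of the 176 had a mean below 0.3 FPKM in 1 of the groups. Of the 7 called, 4 were among them. LINC00632, LINC00960 and LINC01444 met the rule through shControl and LINC01391 through shEphexin1, so their folds and p-values carry that selection. The counts called describe the selection and support no statement about LINC RNAs as a class.

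The number called moved with each library left out. It was 1 without shControl replicate 1, 3 without shControl replicate 2, 2 without shControl replicate 3, 1 without shEphexin1 replicate 1, 6 without shEphexin1 replicate 2 and 1 without shEphexin1 replicate 3. Over all genes it moved as well, from 303 to between 61 and 316, in fits that hold fewer libraries. LINC00341 was called in each of these fits. The sizes of the other 6 differences changed less than the calls, with log2 fold changes of −4.06 to −3.34 for LINC00632, −2.92 to −2.32 for LINC00960, −2.57 to −2.03 for LINC01444, 1.07 to 1.18 for LINC01588, 1.40 to 1.61 for LINC00260 and 1.47 to 1.77 for LINC01391.

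Counted without a model, 32 LINC RNAs had all 3 shEphexin1 values above all 3 shControl values, and 30 had them all below. Over all genes tested, 12.8% did not overlap in the higher direction and 15.4% in the lower. The 62 were 35.4% of the 175, against 28.3% of all genes tested. By sign alone, 102 log2 fold changes were positive and 73 negative. Their median was 0.12 (quartiles −0.23 and 0.44, range −3.59 to 2.08), and the median over all genes tested was −0.01. With quantile normalization the median of the LINC RNAs was 0.014. The balance of signs moved with level in the same way as over all genes. Between 0.3 and 1 FPKM, 46 of 64 LINC RNAs (71.9%) and 63.0% of all genes had positive values, and at 10 FPKM or more these were 8 of 20 and 38.6%.

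**Figure D1:**
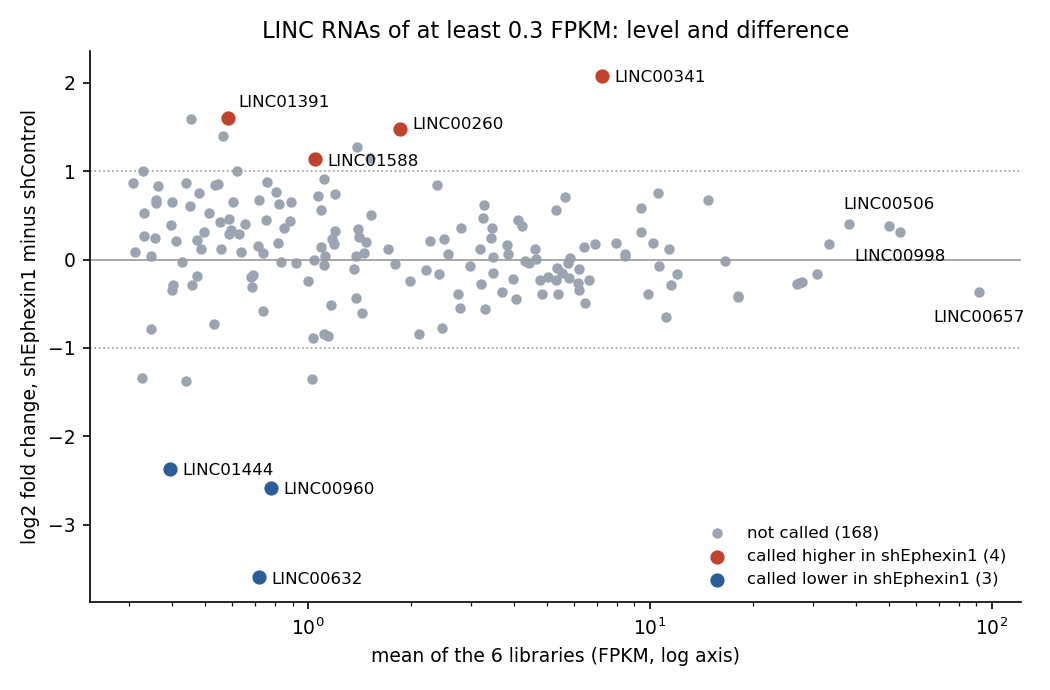
Each point is 1 of the 175 LINC RNAs tested, with its mean over 6 libraries in FPKM on a log axis and its log2 fold change (shEphexin1 minus shControl) on the vertical axis. Dotted lines mark a fold of 2. The 3 called lower (blue) lie below 1 FPKM, LINC00341 is the highest of the 4 called higher (red) at 7.23 FPKM, and none of the 20 at 10 FPKM or more reached a fold of 2.

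LINC00632 showed the largest decrease. This RNA is transcribed from chrX:139791727-139875380 (GRCh37, plus strand), a locus known as the source of the circular RNA CDR1-AS, which was not matched by sequence here and has no value of its own. It was at 1.86, 1.78 and 0.622 FPKM in the control libraries and 0, 0.0511 and 0 FPKM in the depleted ones. All shEphexin1 values lay below the lowest control, which was itself well under the other two. The log2 fold change was −3.59 (SE 0.44, adjusted p = 0.00672 in limma). LINC00632 met the rule of 0.3 FPKM, and the filter of the test, through shControl alone. CDR1, a gene of 789 bases on the opposite strand that lies wholly inside LINC00632, was at 6.91, 6.73 and 9.16 FPKM in the control libraries and 0.0517, 0.0423 and 0 FPKM in the depleted ones, and was also called (log2 fold change −5.88, adjusted p = 8.48e-05). Both rows fell, and without a known strand setting the reads of the host RNA, its circular product and CDR1 cannot be told apart.

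LINC00960 (chr3:75721402-75791199, GRCh37, plus strand) was at 0.832, 1.55 and 1.82 FPKM in the control libraries and 0.282, 0.0672 and 0.115 FPKM in the depleted ones. The groups were apart in every library, with a group mean of 1.40 ± 0.509 against 0.155 ± 0.112 FPKM (SD, n = 3) and a log2 fold change of −2.58 (SE 0.41, adjusted p = 0.0152). With the shEphexin1 mean under 0.3 FPKM, this RNA met the rule through shControl. It shares 63389 bases with ZNF717, a KRAB zinc finger gene on the opposite strand. ZNF717 was at 4.67, 6.35 and 5.48 FPKM in the control libraries and 3.62, 4.17 and 2.65 FPKM in the depleted ones. These groups did not overlap either, but the difference (log2 fold change −0.66, adjusted p = 0.106) did not pass the test.

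LINC01444 is a 2-exon RNA on the short arm of chromosome 18 (chr18:14969000-14970467, GRCh37, minus strand). It was at 0.830, 0.657 and 0.675 FPKM in the control libraries and 0.112, 0.0891 and 0 FPKM in the depleted ones, with a log2 fold change of −2.36 (SE 0.35, adjusted p = 0.0130). The shEphexin1 mean was 9.28% of the control mean and under 0.3 FPKM, so the rule was met through shControl. LINC01443, a LINC RNA on the opposite strand that spans the whole of LINC01444, was below the level needed for a test, at 0.132, 0.0933 and 0.109 FPKM in shControl and listed at 0 in all 3 shEphexin1 libraries.

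The 4 other LINC RNAs on chromosome 18 also had negative log2 fold changes, and none was called: LINC00526 (−0.84, adjusted p = 0.0438), LINC00667 (−0.49, adjusted p = 0.0744) and LINC00470 (−0.26, adjusted p = 0.524) on the short arm and LINC00909 (−0.56, adjusted p = 0.119) on the long arm. Genes of at least 1 FPKM had a median of −0.46 (47 of 49 negative) on the short arm and −0.44 (108 of 123 negative) on the long arm. On the short arm, LINC01444 and LINC00526 lay below the lower quartile of these genes (−0.62), LINC00667 lay between the quartiles and LINC00470 lay above the upper one (−0.36). The 5 LINC RNAs on 7q, where 320 of 407 genes were positive with a median of 0.30, all had positive values, from 0.01 for LINC01003 to 0.70 for LINC01004. On 12p, where the median was −0.43, the 2 LINC RNAs were positive instead, at 0.04 for LINC00941 and 1.28 for LINC00937 (adjusted p = 0.101). The part of the shift over each arm in these values was not tested.

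LINC00341 showed the largest increase and the firmest test. Its symbol is an older name of SYNE3 (chr14:95873603-95982987, GRCh37, minus strand), the gene of nesprin-3, an outer nuclear membrane protein that links the nucleus to intermediate filaments, and the table keeps both rows. LINC00341 was at 3.08, 2.56 and 2.50 FPKM in the control libraries and 12.3, 10.4 and 12.6 FPKM in the depleted ones, a 4.34-fold higher mean (log2 fold change 2.08, SE 0.15, adjusted p = 0.000845). The row of SYNE3 itself was at 5.74, 3.58 and 6.63 FPKM in the control libraries and 20.1, 13.1 and 23.3 FPKM in the depleted ones (log2 fold change 1.81, adjusted p = 0.0152). Both rows rose, and since the match of symbols gives them 1 gene, they cannot be taken as 2 independent changes. Whether they count the same reads was not tested. LINC01279, matched in the same way to CCDC80, had −0.18 (adjusted p = 0.764 in limma), while the row of CCDC80 had 0.20 (adjusted p = 0.325). The genes next to SYNE3 did not pass the test. GLRX5, a mitochondrial iron-sulfur protein gene whose start is 16853 bases away, had a log2 fold change of −0.07, and SNHG10, a small nucleolar RNA host gene, had 0.37 (adjusted p = 0.0883).

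LINC00260 was at 1.14, 0.855 and 0.822 FPKM in the control libraries and 2.62, 3.00 and 2.70 FPKM in the depleted ones, all above the highest control (log2 fold change 1.48, SE 0.19, adjusted p = 0.00717). The symbol has no entry on GRCh37 in GENCODE, and the gene table of RefSeq, on GRCh38.p14, places it within ATP2B4, the gene of a plasma membrane calcium pump. ATP2B4 was at 17.999, 19.3 and 17.3 FPKM in the control libraries and 39.997, 38.1 and 38.2 FPKM in the depleted ones, and was also called (log2 fold change 1.09, adjusted p = 0.00229). Per length the LINC RNA was thus at a small part of the level of the gene around it and rose together with it. Both lie on the plus strand, so a known strand setting would not tell their reads apart.

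LINC01391 (chr3:138654031-138662862, GRCh37, minus strand) was at 0.276, 0.177 and 0.256 FPKM in the control libraries and 0.997, 0.713 and 1.08 FPKM in the depleted ones (log2 fold change 1.61, SE 0.26, adjusted p = 0.0170). With all control values under 0.3 FPKM, this RNA met the rule through shEphexin1. It starts 203 bases past the end of FOXL2, a forkhead transcription factor gene of the ovary on the same strand. FOXL2 was at 0.231, 0.250 and 0.288 FPKM in the control libraries and 0.623, 0.291 and 0.701 FPKM in the depleted ones. FOXL2 (log2 fold change 0.78, adjusted p = 0.211) and FOXL2NB, the gene next to it (1.20, adjusted p = 0.0832), did not overlap between groups and did not pass the test.

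LINC01588 (chr14:50394289-50571820, GRCh37, minus strand) was the call with the smallest fold, at 0.640, 0.638 and 0.576 FPKM in the control libraries and 1.38, 1.62 and 1.42 FPKM in the depleted ones (log2 fold change 1.13, SE 0.18, adjusted p = 0.0168). The replicates were close, but the call was lost in 10 of 17 alternative settings, in which its log2 fold change ran from 0.61 to 1.24. None of its neighbours passed the test. VCPKMT, a lysine methyltransferase gene on the same strand whose start is 11498 bases away, had a log2 fold change of 0.05 (adjusted p = 0.892), ARF6, a small GTPase gene, had 0.20 (adjusted p = 0.463), and SOS2, an exchange factor of RAS, had 0.22 (adjusted p = 0.587).

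**Figure D2:**
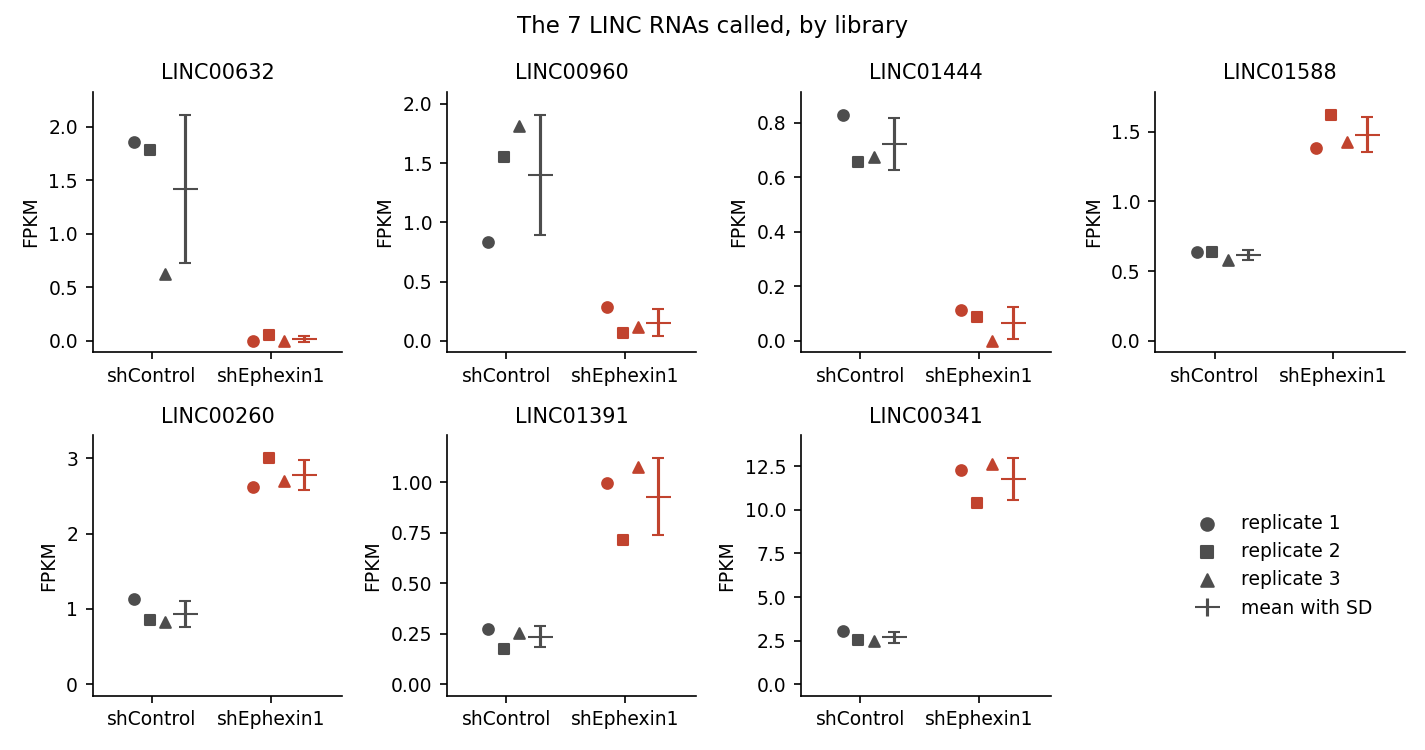
Each panel shows 1 of the 7 LINC RNAs called, in FPKM, with 1 symbol per library (circle, square and triangle for replicates 1, 2 and 3) and the group mean with its SD (n = 3). In all 7 panels the groups do not overlap, and the shControl values of LINC00632 range from 0.622 to 1.86 FPKM.

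Called or not, 9 of the 175 rose and 6 fell by a fold of 2 or more. Over all 16020 genes tested, 549 rose and 375 fell by as much. Between 0.3 and 1 FPKM, these were 205 and 132 of 1926 genes, and 4 and 5 of 64 LINC RNAs. LINC01111 and LINC01573 were the uncalled RNAs among the 5 largest positive values of the LINC RNAs. LINC01111 was at 0.112, 0.301 and 0.127 FPKM in the control libraries and 0.518, 0.930 and 0.729 FPKM in the depleted ones, and missed the threshold (log2 fold change 1.59, adjusted p = 0.0394). LINC01573, now named NALT1, was at 0.173, 0.303 and 0.226 FPKM in the control libraries and 1.49, 0.340 and 0.842 FPKM in the depleted ones, so its 3 values in depleted cells were far apart (log2 fold change 1.40, SE 0.47, adjusted p = 0.125). Its start lies 164 bases from that of NOTCH1, the receptor gene, on the other strand. NOTCH1 was at 1.21, 1.0997 and 1.33 FPKM in the control libraries and 3.21, 2.91 and 3.86 FPKM in the depleted ones, and was called (log2 fold change 1.37, adjusted p = 0.00765). The RNA that starts beside NOTCH1 was thus of the same sign and size as the coding gene, but only the coding gene passed the test.

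LINC01503 and LINC00664 had the other large negative values. LINC01503 was at 0.669, 0.592 and 0.593 FPKM in the control libraries and 0.549, 0 and 0.226 FPKM in the depleted ones (log2 fold change −1.37, adjusted p = 0.240). Its value was −0.64 without shEphexin1 replicate 2 and −1.99 without shEphexin1 replicate 1. LINC00664, which lies on the same strand as the zinc finger gene ZNF429 and overlaps it, was at 1.28, 1.67 and 1.47 FPKM in the control libraries and 0.580, 0.952 and 0.223 FPKM in the depleted ones (log2 fold change −1.35, adjusted p = 0.101), and its value was −0.89 without shEphexin1 replicate 3. In both, the depleted libraries were all lower but spread widely. LINC00540 came next, at 0.489, 0.781 and 0.286 FPKM in the control libraries and 0.197, 0.115 and 0.0947 FPKM in the depleted ones. Its groups did not overlap either (log2 fold change −1.34, SE 0.37, adjusted p = 0.0797 in limma).

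**Figure D3:**
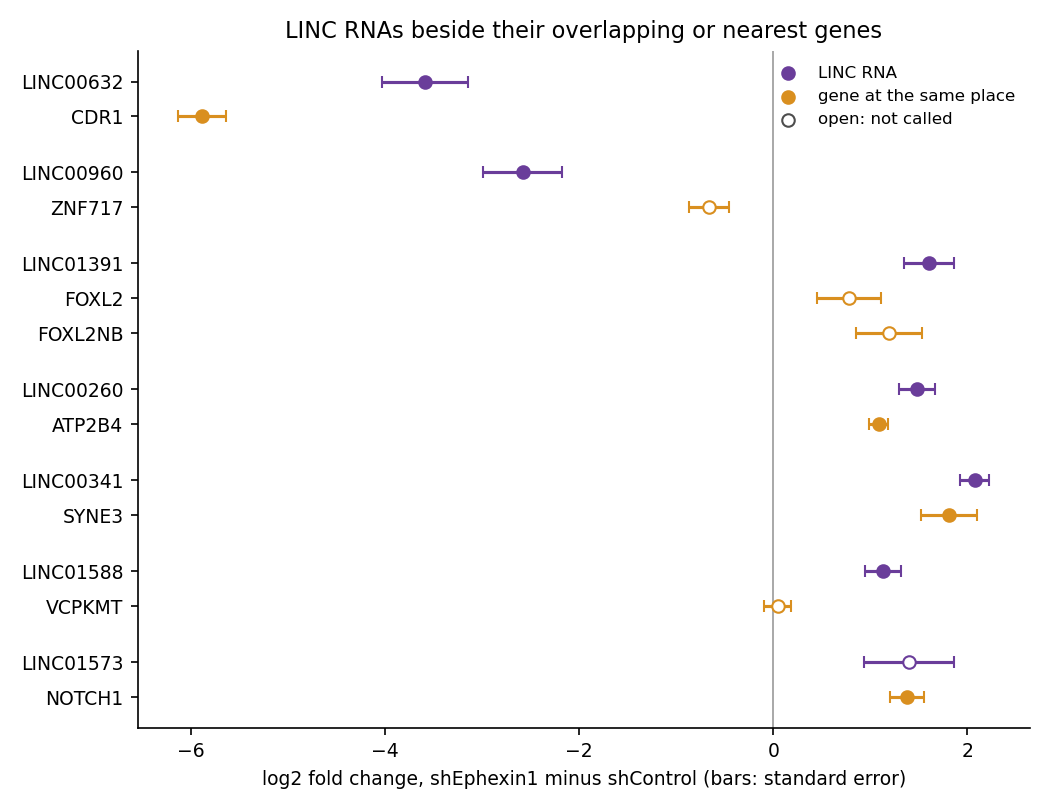
Log2 fold changes (shEphexin1 minus shControl, bars are standard errors of the limma model, n = 3 libraries per group) of LINC RNAs (purple) and of the genes that overlap or lie next to them (orange), with open circles for values that did not pass the test. LINC00632 with CDR1, LINC00260 with ATP2B4 and LINC00341 with SYNE3 were called as pairs, and LINC01588 (1.13) stood apart from VCPKMT (0.05).

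Across all LINC RNAs, distance to the nearest coding gene was examined as a property the rule had not used. The nearest coding start on each side was taken, and 92 of them had such a gene of at least 1 FPKM within 100000 bases, the nearer one where both sides did. In 13 of these pairs a nearer coding gene below 1 FPKM on the other side was passed over. Over these 92 pairs, which share libraries and are not replicates, the Spearman rank correlation of the log2 fold changes was 0.27, and 56 pairs (60.9%) had the same sign. The value did not grow with closeness. It was 0.012 in 21 pairs with starts within 1000 bases, of which 10 had the same sign, 0.26 in 17 pairs farther apart but within 10000 bases and 0.39 in 54 pairs beyond that. Without the 13 pairs it was 0.24 in 79 pairs, and 0.36 in the 41 of them beyond 10000 bases. LINC01573 with NOTCH1 was 1 of the closest pairs, and in another, LINC00412 (0.71) with RPL21 (−1.06), the signs were opposite.

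**Figure D4:**
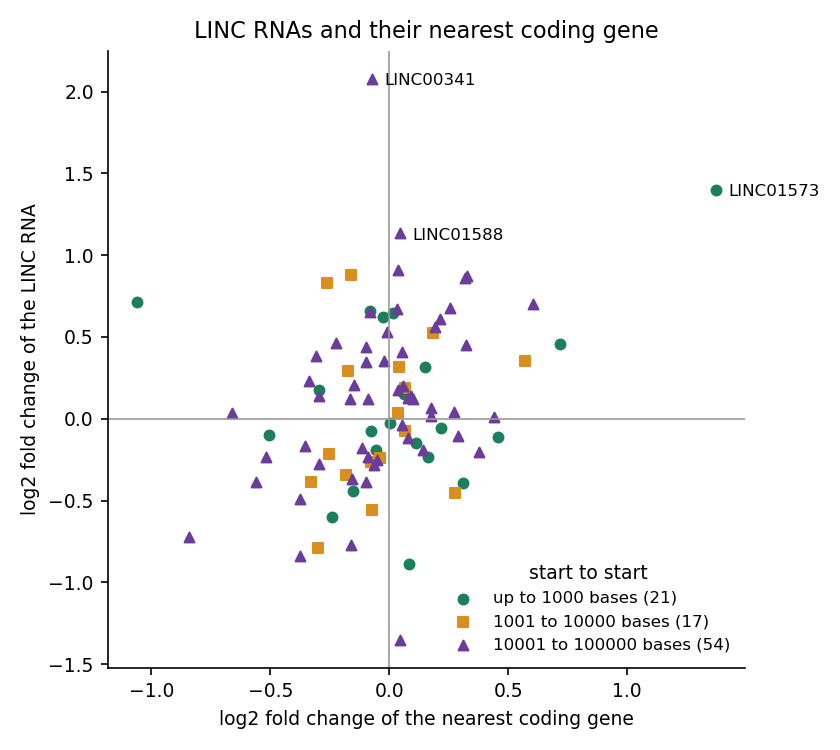
Each of the 92 points is a LINC RNA with the nearer of its flanking coding genes of at least 1 FPKM, with the log2 fold change of the coding gene on the horizontal axis and that of the LINC RNA on the vertical axis. Colours and symbols give the distance between the starts. LINC01573 lies at the upper right with NOTCH1, while LINC00341 and LINC01588 lie above neighbours at −0.07 and 0.05.

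The most abundant LINC RNAs were set apart by level alone. None of the 10 with the highest means was called in the limma fit, and 4 of them had an unadjusted p below 0.05. Of all genes at 10 FPKM or more, 0.494% were called and 24.4% had such a p. LINC00657 (NORAD), a cytoplasmic RNA that binds PUMILIO proteins, was the highest in every library, at 101, 112 and 94.7 FPKM in the control libraries and 81.4, 91.3 and 67.2 FPKM in the depleted ones. All depleted libraries were below all controls, by a log2 fold change of −0.37 (SE 0.14, adjusted p = 0.161). LINC00839 was at 21.1, 19.5 and 21.7 FPKM in the control libraries and 15.5, 15.03 and 15.9 FPKM in the depleted ones, a small difference with little spread (log2 fold change −0.42, SE 0.10, adjusted p = 0.0553). LINC00665, studied in lung cancer, had −0.28 (adjusted p = 0.180) with groups that did not overlap, and LINC00938 had −0.27 (adjusted p = 0.286) with groups that did.

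LINC00506 was higher in all depleted libraries, at 43.4, 50.5 and 37.0 FPKM in the control libraries and 62.6, 53.8 and 53.3 FPKM in the depleted ones (log2 fold change 0.38, adjusted p = 0.159). LINC00504 had 0.40 (adjusted p = 0.442), but both groups had their highest value in replicate 2, at 48.5 and 54.9 FPKM. LINC00152 (CYTOR), an RNA associated with tumour cell growth, had 0.18 (adjusted p = 0.458), and its reads may be shared with its near-identical copy in MIR4435-2HG, which had 0.30 (adjusted p = 0.103). LINC01578 (CHASERR), which overlaps the chromatin remodeller gene CHD2 on the same strand and is known to limit it, had −0.25 (adjusted p = 0.377), and CHD2 had −0.05 (adjusted p = 0.869). For none of the 10 was the difference past the threshold, which does not show that they were equal.

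**Figure D5:**
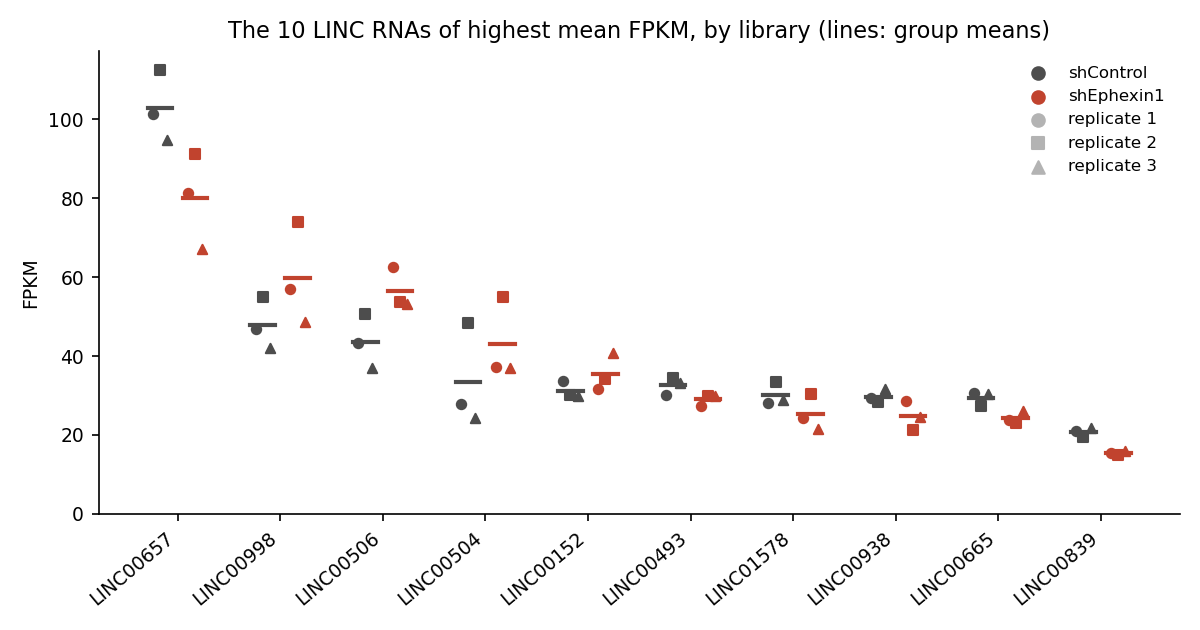
FPKM of the 10 LINC RNAs of highest mean level in each of the 6 libraries (symbols for replicates, lines for group means). LINC00657 lies between 67.2 and 112 FPKM, and LINC00657, LINC00506, LINC00493, LINC00665 and LINC00839 are those whose groups do not overlap.

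Transcripts now known to encode small proteins were taken as a list. Of 8, 6 were expressed, and 0 were called in limma, with 1 at an unadjusted p below 0.05, beside 1.89% and 23.3% of all genes tested. That 1 was LINC00116 (MTLN), the gene of the mitochondrial peptide mitoregulin, at 3.18, 3.10 and 3.07 FPKM in the control libraries and 1.82, 2.08 and 1.48 FPKM in the depleted ones. Its shEphexin1 mean was 57.6% of the control mean (log2 fold change −0.77, SE 0.17, adjusted p = 0.0404), short of both thresholds. The others were LINC00998 (SMIM30, an endoplasmic reticulum membrane peptide, 0.31), LINC00094 (0.01), LINC00493 (SMIM26, mitochondrial, −0.17), LINC00467 (−0.21) and LINC01420 (NBDY, a P-body peptide, −0.29), with adjusted p from 0.255 to 0.968. The list's median log2 fold change was −0.19.

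A list of 25 LINC RNAs studied in cancer was treated in the same way. The table held 24 of them, 11 at 0.3 FPKM or more, and 0 were called in limma, with 3 of the 11 (27.3%) at an unadjusted p below 0.05, again beside 1.89% and 23.3% of all genes. The median log2 fold change of the 11 was 0.04. LINC01116 had the largest value with groups that did not overlap, at 6.21, 9.28 and 7.16 FPKM in the control libraries and 12.4, 12.2 and 9.31 FPKM in the depleted ones (log2 fold change 0.59, adjusted p = 0.117). LINC00337 had 0.53 through 1 low control, at 0.0981 FPKM beside 0.565 and 0.680 FPKM. LINC00460 (0.20), LINC00472 (0.06), LINC00461 (0.04), LINC00941 (0.04), LINC00963 (−0.02) and LINC00662 (−0.16) had adjusted p from 0.445 to 0.968, and the sign of 5 of these turned in at least 1 alternative setting. LINC00261, LINC00319, LINC00473, LINC00511, LINC00668 and LINC01133 were listed at 0 in all 6 libraries.

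Among long noncoding RNAs with other kinds of symbol, 26 of a list of 40 were at 0.3 FPKM or more. Of these, 1 (3.85%) was called, beside 1.91% of all genes at that level. DANCR, an snoRNA host gene studied in cell differentiation, was at 32.0, 27.2 and 33.1 FPKM in the control libraries and 14.6, 12.9 and 14.9 FPKM in the depleted ones (log2 fold change −1.11, adjusted p = 0.00432). The median of the 26 was −0.03. ZFAS1, another snoRNA host, had −0.79 (adjusted p = 0.0117), under the fold of 2, and MALAT1, the most abundant of the list, was at 0.00 with overlapping groups.

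A further group came close to the threshold and was not called. LINC01000 was at 8.06, 7.18 and 8.04 FPKM in the control libraries and 14.99, 10.5 and 14.5 FPKM in the depleted ones (log2 fold change 0.76, adjusted p = 0.0379). LINC00342 was at 10.8, 13.9 and 9.66 FPKM in the control libraries and 16.5, 19.3 and 18.7 FPKM in the depleted ones (log2 fold change 0.67, adjusted p = 0.0497). In both, all depleted libraries were above all controls. In all, 12 of the 175 had an adjusted p of at most 0.05, beside 1123 of all 16020 genes tested. Of the 175, 47 (26.9%) had an unadjusted p below 0.05 against 23.3% of all genes tested.

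At the edge of the rule, LINC01609 (mean 0.269 FPKM), LINC01431 (0.293) and LINC01476 (0.294) were just outside and LINC01063 (0.303), LINC00896 (0.307) and LINC01271 (0.311) just inside. LINC01063 was the one transcript not tested. It owed its place to shControl replicate 1, at 1.499 FPKM, and was otherwise listed at 0 except for 0.320 FPKM in shEphexin1 replicate 2. Of the 176, 169 were above 0 in all libraries and 7 had a 0 somewhere. A 0 in these files need not mean absence, since the histone gene H3F3A, which every cell uses, was listed at 0 in all 6 libraries.

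The libraries differed in ways that touch these values. Within its group, the log2 deviation of replicate 2 fell with the GC content of the transcript, with a Spearman rank correlation over 162 LINC RNAs of −0.47 in shControl and −0.40 in shEphexin1, while replicate 3 had 0.54 and 0.30. This held for the libraries as a whole. Over 15200 genes tested, replicate 2 had −0.69 and −0.76 and replicate 3 had 0.64 and 0.66. Replicate 1 had 0.33 and 0.47 over these genes, and 0.0019 and 0.21 over the LINC RNAs. Without replicate 2 in both groups, 7 LINC RNAs were called, 6 of them the same, with LINC01573 in place of LINC01588. Of 9 lung epithelial markers, KRT18 (log2 fold change −0.94, adjusted p = 0.0439) and KRT8 (−1.07, adjusted p = 0.0304) were the 2 above 0.3 FPKM, EPCAM (0.97, adjusted p = 0.175) and SFTPB (0.29, adjusted p = 0.599) had positive values below that level, and CDH1, NKX2-1 and SCGB1A1 were at 0 in all libraries. The mesenchymal marker VIM was at 1979 to 2670 FPKM. Of 4 mesenchymal markers, 0 were called in limma, with 0 at an unadjusted p below 0.05, beside 1.89% and 23.3% of all genes tested. Among markers of other cell types, PTPRC, CD3E and HBB were at 0 in all libraries, and the highest, DCN, had a mean of 0.406 FPKM. The part of these differences in the levels of the LINC RNAs was not tested. In bulk libraries, fewer cells with an RNA and less of it per cell cannot be told apart.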

How the data were processed

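RNA of 6 H1299 libraries (3 shControl, 3 shEphexin1) was measured by stranded total RNA sequencing. Per the labels and the study's methods, the authors aligned reads to GRCh37/hg19 with TopHat2 2.0.13 and deposited FPKM per gene from Cuffdiff (Cufflinks 2.2.1), scaled by geometric library normalization with a pooled dispersion model, and bcl2fastq 2.20 is also named. The annotation, any filter and the strand setting are not given in the sources used here. Read counts are not part of the values, so depth and counting error are unknown. The smallest steps between low values put the value of 1 read at 0.952 to 1.22 times that of shControl replicate 1, so the libraries' depths appear alike, but whole reads were not recovered. All 6 value columns were assigned by library name and 0 were left out.

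The LINC RNAs and all lists were chosen with earlier results of these data known. The 16020 genes that reached 0.1 FPKM in 3 or more libraries entered 1 linear model of log2(FPKM + 0.1) on group (limma 3.58.1, lmFit and eBayes, trend on, R 4.3.3). P-values were adjusted over all 16020 by Benjamini-Hochberg. Calls needed an adjusted p no higher than 0.025 and a fold of 2 or more. An exact permutation test of 3 against 3 cannot go below 0.1 and was not used. The fit was tested on simulated data.

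Named were each LINC RNA called, the 10 of highest mean, the 5 largest differences in each direction, the lists, the 3 on each side of the threshold, the nearest coding genes of those called, and NGEF. Overlapping genes, NOTCH1, RPL21, LINC00540, LINC01279, CCDC80, those near the threshold and those on chromosomes 7, 12 and 18 were named after their values were seen.

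Positions are those of GENCODE release 44 on GRCh37, matched for 163 of 176 symbols, of which 34 went through older symbols in the RefSeq table. Promoter windows are RefSeq's on GRCh38.p14. Alternatives were pseudocounts of 0.01 and 1 FPKM, no filter or one of 1 FPKM, quantile normalization, median centring, no trend, a replicate block, each library left out, replicates 1 and 3 alone, an adjusted p of 0.05 and a mean of 1 FPKM. A batch term for replicate 2 and the LINC RNAs without coding overlap were added after seeing the data. Python 3.11.15, pandas 2.3.3 and matplotlib 3.10.9 were used. Some listed items are not reported here.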

Additional observations from a re-analysis of the deposited data

How the results depend on the processing

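Of the 7 LINC RNAs called, LINC00341 was called in all 17 alternative settings (adjusted p from 7.23e-05 to 0.0107), LINC00632 in 13 of 16, LINC00260 in 12 of 17, LINC00960 in 11 of 16, LINC01391 in 10 of 16, LINC01444 in 9 of 16 and LINC01588 in 7 of 17, and none of the 7 changed direction in any of them. FPKM without counts give no depth for a value. In size, the 4 called below 1 FPKM moved most between pseudocounts of 0.01 and 1 FPKM. LINC00632 went from −6.13 to −1.21 and LINC00960 from −3.24 to −1.04. LINC01444 went from −3.88 to −0.69 and LINC01391 from 1.93 to 0.637. The filter of 1 FPKM left these 4 out. A pseudocount of 1 FPKM lost the calls of LINC01391, LINC01444, LINC00260 and LINC01588, the last 2 above 1 FPKM, and kept LINC00632 and LINC00960.

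The LINC RNAs called higher were 4 as reported, 1 with a pseudocount of 1 FPKM, 2 among those without coding overlap (chosen after seeing the data) and 1 to 3 in the fits that omitted 1 library. Those called lower were 3 as reported, 0 with a filter of 1 FPKM in 3 libraries or a mean of 1 FPKM, where by construction the 3 are no longer included, and 0 to 3 in the fits that omitted 1 library. Where 0 were called, the log2 fold changes of the 3 stayed negative in every fit that held them. The median log2 fold change was 0.115 as reported, 0.0107 with the filter of 1 FPKM, 0.0144 with quantile normalization, 0.0074 at a mean of 1 FPKM and 0.0236 to 0.146 with 1 library omitted, and stayed positive in all of these. The number not overlapping was 62 as reported, 96 with replicates 1 and 3 alone, where 2 against 2 libraries overlap less often by construction, 40 of the 113 without coding overlap (35.4%, as for the 62 of 175) and 69 to 81 with 1 library omitted.

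Over all genes, 303 were called as reported, 139 with a pseudocount of 1 FPKM, 464 at an adjusted p of 0.05, 564 with a batch term for replicate 2 (added after seeing the data) and 61 to 316 with 1 library omitted. With the replicate number as a block, 556 of all genes and 10 LINC RNAs were called, the 7 above with LINC00664, LINC00937 and LINC01111. NGEF had −0.527 with an adjusted p of 0.00284 in this limma fit, under the fold of 2. Deviations of same-numbered libraries correlated at 0.0914, 0.43 and 0.328, each the highest for its library, with the first under 0.1. Their correlations with GC content over all genes also had the same sign for each replicate number. No label says that the numbers mark a shared day or culture, so whether the libraries were paired is not known. The main fit took them as unpaired.

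Uncalled LINC RNAs were followed singly through the settings only if they had the highest means or largest differences or were on the lists. The signs of the other uncalled LINC RNAs were not followed. Among those followed, the sign turned for LINC00460 (0.205), LINC00337 (0.526, only without shControl replicate 1) and 5 near 0 as reported, 7 in all. With 1 library omitted, their log2 fold changes ran from −0.0446 to 0.0943 for LINC00094 (also −0.04 and −0.0075), −0.0687 to 0.346 for LINC00460, −0.033 to 0.125 for LINC00941, −0.175 to 0.176 for LINC00963 (also 0.0839), −0.0945 to 0.894 for LINC00337, −0.0599 to 0.196 for LINC00472 (also −0.0269) and −0.223 to 0.424 for LINC00461 (also −0.0847). With replicates 1 and 3 alone, LINC00460 was −0.0301, LINC00963 0.069 and LINC00461 −0.0921, and with quantile normalization LINC00963 was 0.0171 and LINC00461 −0.0649. The cause was not tested.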

Other observations

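Among the LINC RNAs below the 0.3 FPKM threshold, 60 passed the filter of 0.1 FPKM in 3 libraries and 0 were called in the limma fit, with 12 at an unadjusted p below 0.05, beside 23.3% of all genes tested. LINC01212 had the lowest adjusted p, at 0.363, 0.285 and 0.194 FPKM in the control libraries and 0, 0.0392 and 0 FPKM in the depleted ones (log2 fold change −1.74, adjusted p = 0.0313). LINC00456 was at 0.113, 0.251 and 0.272 FPKM in shControl and listed at 0 in all 3 shEphexin1 libraries (adjusted p = 0.0430), and LINC00582 was at 0.149, 0.145 and 0.188 FPKM in shControl and likewise listed at 0 (adjusted p = 0.0485). LINC01508 was at 0.254, 0.345 and 0.424 FPKM in the control libraries and 0, 0 and 0.110 FPKM in the depleted ones (adjusted p = 0.0434). LINC01480 showed the opposite order, listed at 0 in all 3 shControl libraries and at 0.185, 0.142 and 0.271 FPKM in shEphexin1 (adjusted p = 0.0389). LINC01212, LINC00456 and LINC00582 passed the filter through shControl alone, and LINC01480 through shEphexin1 alone. Their adjusted p-values carry that selection and are given as description, not as support for a difference. Of these 60, 13 did not overlap between groups (21.7%, beside 28.3% of all genes tested), 5 higher and 8 lower.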
